A study of Homo sapiens with 4 samples.

Results

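The ERK feedback genes are 10 genes whose products switch the RAS and ERK signalling pathway back off: the phosphatase genes DUSP1, DUSP4, DUSP5, DUSP6 and DUSP7, the Sprouty genes SPRY1, SPRY2 and SPRY4, and the SPRED genes SPRED1 and SPRED2. They were chosen by gene name, and a gene was measured where a probe bearing its name was detected at a detection p under 0.01 on 2 or more of the 4 arrays. Of the 10 genes, 8 were measured, among 10239 measured genes in all. The array carried 17 probes for the 10 genes, of which 9 were kept. DUSP4 and DUSP7 had no kept probe.

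The study transfected A549 cells, a line from a human lung adenocarcinoma, with miR-509-3p mimic, a synthetic double of that microRNA, or with a control mimic meant to silence nothing. Both groups were grown in the same serum-containing medium, were transfected with the same lipid reagent, and gave RNA after 24 hours. Each group held 2 Illumina bead arrays. The labels do not name separate cultures, so every p-value below speaks of the spread between 2 arrays a group, which may be technical, and this number of arrays limits the precision. For each gene, limma, the test used, takes this spread partly from that of all kept probes.

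ERK is the last kinase of a cascade that runs from growth factor receptors through RAS, RAF and MEK to the nucleus. Dual specificity phosphatases remove the phosphates that make ERK and its relatives active, some of them in the nucleus and some in the cytoplasm. Sprouty proteins dampen signalling between the receptor and RAF, and SPRED proteins bring the RAS inactivator neurofibromin to the membrane. Many of these genes are themselves switched on by ERK, which closes a negative feedback loop.

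The mature sequence shown is the one RefSeq (GRCh38.p14) lists for miR-509-3p, the microRNA that the mimic stands for. It is 22 nucleotides long and is encoded by 3 genes on the minus strand of chromosome X, the first at chrX:147258775-147258796. It is printed with the seed that pairs with target transcripts (bases 2 to 8) in capitals, because this microRNA is what separates the groups. No other mature human miRNA name in that table shares the seed. Target sites in the members' transcripts were not analysed here.
hsa-miR-509-3p: uGAUUGGUacgucuguggguag

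All 3 Sprouty members rose with the mimic, SPRED2 fell, the widest change of any member, and the measured DUSP genes and SPRED1 did not pass the test. SPRY4 was 1.98-fold higher, SPRY1 1.53-fold and SPRY2 1.47-fold, and SPRED2 was 3.20-fold lower. By limma with Benjamini-Hochberg adjustment over all genes and a call at an adjusted p under 0.05, 3 of the 8 measured members were called higher and 1 lower, and 4 were not called. Among all genes tested, 18% were called higher, 16.5% lower and 34.4% in either direction, so the members' count of 4 of 8 stands beside a broad background. The median log2 fold change was -0.03 over the 8 members and 0.04 over all genes, and both medians join moves in opposite directions.

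**Figure D1:**
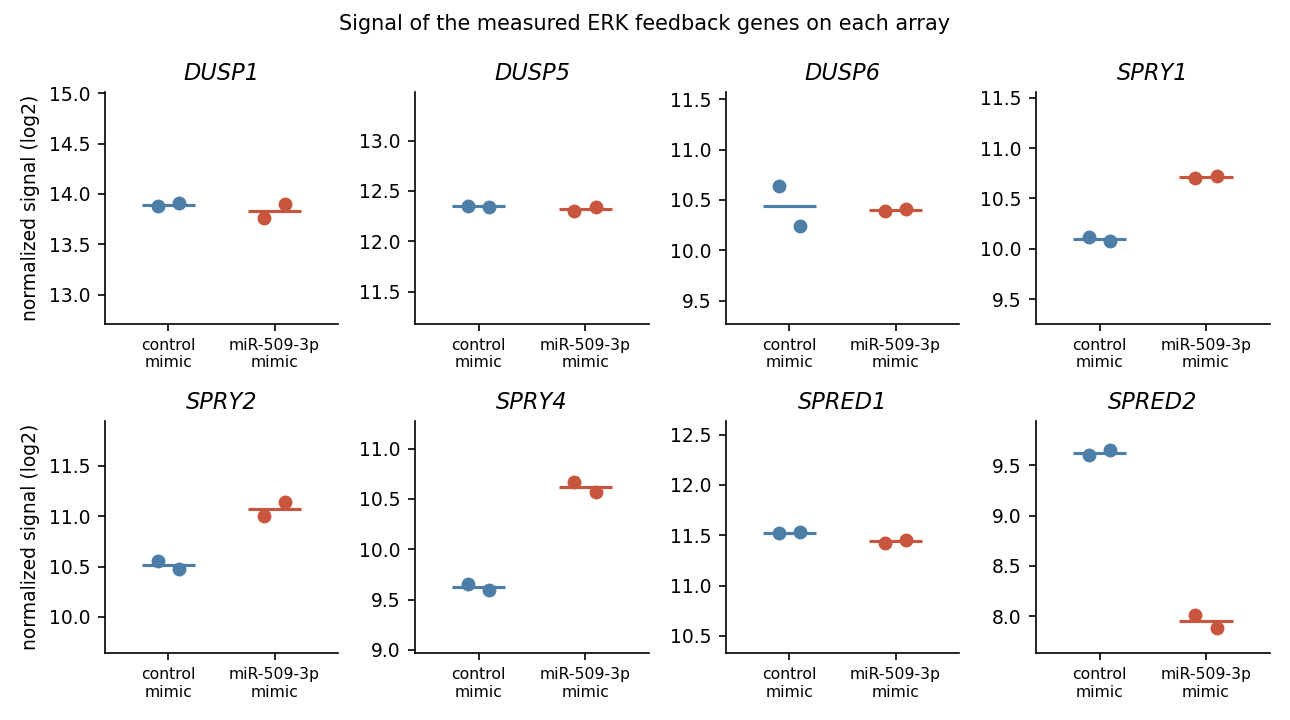
Normalized log2 signal of the 8 measured ERK feedback genes on each array, 1 panel a gene, with a point for each of the 2 control mimic and 2 miR-509-3p mimic arrays and a line at each group mean. Every panel spans the same log2 range. The Sprouty panels step up, the SPRED2 panel steps down from a mean of 9.63 to 7.95, and the other panels stay close to level.

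Sprouty genes come first, as inhibitors that act nearest to the receptor. For SPRY4 (probe ILMN_2086105), the 2 control arrays read 9.66 and 9.60 in normalized log2 signal and the mimic arrays 10.66 and 10.57. Both mimic arrays lay above both control arrays by more than the distance between replicates. The group means were 9.63 ± 0.04 and 10.61 ± 0.07 (SD, n = 2 each). This made a log2 fold change of 0.99 ± 0.08 (estimate ± SE), with a 95% interval of 0.77 to 1.21 and a limma adjusted p of 0.00369 after Benjamini-Hochberg adjustment. Among all genes tested, this change stood at percentile 98.2. The array has 3 more SPRY4 probes, all below detection on the 4 arrays with deposited signals of 183 to 229, so the SPRY4 change rests on a single probe of 4.

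SPRY1 was read by 2 kept probes, annotated to different transcripts of the gene. The brighter one (ILMN_2329914) gave log2 signals of 10.12 and 10.08 on the control arrays and 10.70 and 10.73 on the mimic arrays. Again the groups did not overlap, and the arrays of a group differed by under 0.05. Its log2 fold change was 0.62 ± 0.07 (95% interval 0.42 to 0.82), with a limma adjusted p of 0.00749 (Benjamini-Hochberg). The second probe (ILMN_1691860) gave 9.13 on both control arrays and 9.95 and 9.97 on the mimic arrays. It rose by 0.83 ± 0.07, which is 1.78-fold, with a limma p of 0.00475 adjusted by Benjamini-Hochberg over the 16561 kept probes, of which 29.7% were called in either direction. Both SPRY1 probes thus moved the same way, and another SPRY1 probe was below detection on all 4 arrays. Without mimic array 1 or mimic array 2, the brighter probe kept its direction at 0.63 and 0.60, but the limma adjusted p was 0.0594 and 0.0581 (Benjamini-Hochberg), in a range of 0.000155 to 0.0594 over all 13 alternatives.

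SPRY2, the Sprouty member with the smallest estimate, gave log2 signals of 10.56 and 10.47 on the control arrays and 11.01 and 11.14 on the mimic arrays (probe ILMN_2089329). Both mimic arrays stood above both control arrays, by more than the arrays of a group differed. Its log2 fold change was 0.56 ± 0.09 (95% interval 0.32 to 0.79), with a limma adjusted p of 0.0141 (Benjamini-Hochberg). This call was lost when any 1 array other than control 1 was left out. Leaving out any array also cut the calls among all genes, and without mimic 1 the SPRY2 estimate was larger, at 0.62. The limma adjusted p (Benjamini-Hochberg) was 0.0571 without control 2, 0.0627 without mimic 1 and 0.0826 without mimic 2, and 0.0533 with no filter on dim probes, in a range of 0.000348 to 0.0826 over all 13 alternatives. Across them, the log2 fold change stayed between 0.49 and 0.62. The intervals of SPRY1 and SPRY2 overlap, and whether the 3 genes differ in the size of their rise was not tested.

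The SPRED genes, relatives of Sprouty that share its cysteine-rich domain, parted. SPRED2 (probe ILMN_1791232) had log2 signals of 9.61 and 9.65 on the control arrays and 8.01 and 7.89 on the mimic arrays. The deposited signals before any correction were 923 and 995 against 397 and 394, and the probe was detected on all 4 arrays. Its log2 fold change was -1.68 ± 0.09 (95% interval -1.91 to -1.45), with a limma adjusted p of 0.00228 (Benjamini-Hochberg), and it passed under every alternative tried and without any one array. The fall was smaller without background correction, at -1.21 or 2.31-fold, and with the authors' processed values, at -1.24. Both lie outside that interval, so the size of the fall depends on the processing. The probe is the only one on the array annotated to SPRED2. As reported, only 0.869% of all genes had a change as low or lower. In these bulk samples, fewer cells with the transcript and less of it per cell cannot be told apart.

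SPRED1, the closest relative of SPRED2 among the members, gave 11.52 and 11.53 on the control arrays and 11.43 and 11.46 on the mimic arrays. The mimic arrays were both slightly lower, by less than the test could call. Its log2 fold change was -0.08 ± 0.07 (95% interval -0.28 to 0.11), with a limma adjusted p of 0.423 (Benjamini-Hochberg). The interval of SPRED2 lies wholly below that of SPRED1, although the difference between them was not itself tested.

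**Figure D2:**
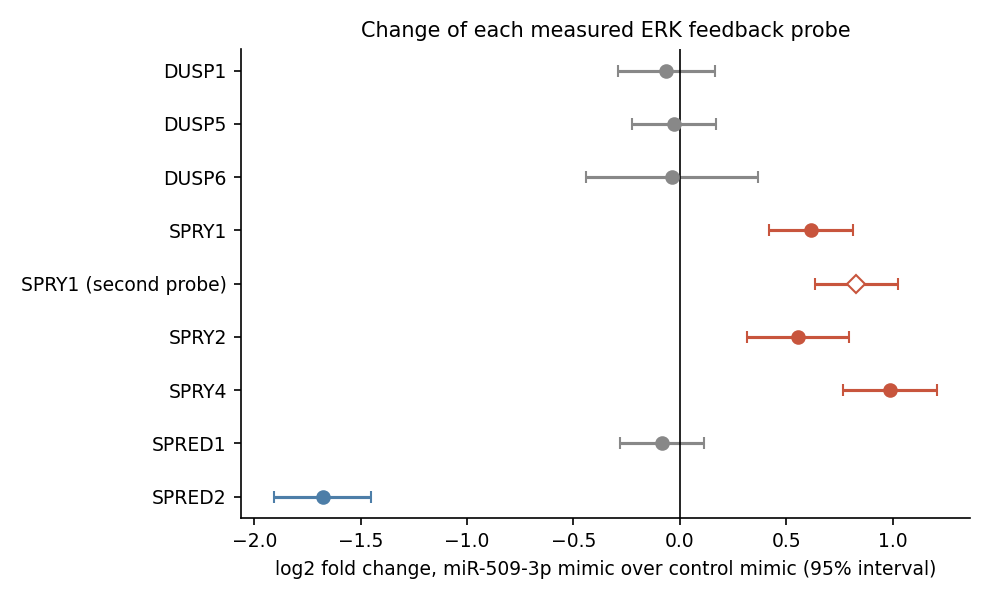
Log2 fold change of the miR-509-3p mimic over the control mimic for each of the 9 kept ERK feedback probes, with 95% intervals from limma. Circles mark the probe that stands for a gene and the open diamond the second SPRY1 probe; red passed the test as higher, blue as lower and grey did not pass. The SPRY intervals lie above 0, that of SPRED2 lies below -1.45, and those of SPRED1 and the DUSP genes span 0.

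The phosphatase genes showed no change that passed. DUSP1, an inducible nuclear phosphatase that also acts on p38 and JNK, gave log2 signals of 13.88 and 13.91 on the control arrays and 13.77 and 13.90 on the mimic arrays. These groups overlapped. Its log2 fold change was -0.06 ± 0.09, and the 95% interval of -0.29 to 0.16 leaves room for a change of either sign. DUSP5, a nuclear phosphatase selective for ERK, gave 12.35 and 12.34 on the control arrays and 12.30 and 12.34 on the mimic arrays. Its log2 fold change was -0.03 ± 0.07 (95% interval -0.23 to 0.17).

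DUSP6, the cytoplasmic phosphatase selective for ERK, had the widest spread within a group among the 8 measured members. Its kept probe (ILMN_2396020) gave 10.64 and 10.24 on the control arrays and 10.40 and 10.41 on the mimic arrays. Both mimic arrays fell between the control arrays, which differed from each other by more than the groups did. The log2 fold change was -0.04 ± 0.15 with a 95% interval of -0.44 to 0.37, and it was 0.16 without control 1, so neither a direction nor its absence can be read. A second DUSP6 probe, annotated to another transcript, was below detection on all 4 arrays. The limma adjusted p-values (Benjamini-Hochberg) of DUSP1, DUSP5 and DUSP6 were 0.603, 0.791 and 0.873.

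DUSP4, a nuclear phosphatase induced by ERK, was below detection at both of its probes on every array, with detection p-values of 0.0935 or more. DUSP7, a cytoplasmic relative of DUSP6, had deposited signals of 201 on both control arrays and 183 and 260 on the mimic arrays. It was detected on mimic 2 alone, which falls short of the rule, and so neither gene has a fold change here. In all, 8 of the 17 probes of the members missed the rule.

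Without regard to the test, the groups did not overlap for 6 of the 8 measured members, against 72.9% of all genes tested. The 2 that overlapped were DUSP1 and DUSP6. DUSP5 and SPRED1 did not overlap, with log2 fold changes of only -0.03 and -0.08, so the lack of overlap alone says little with 2 arrays a group.

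**Figure D3:**
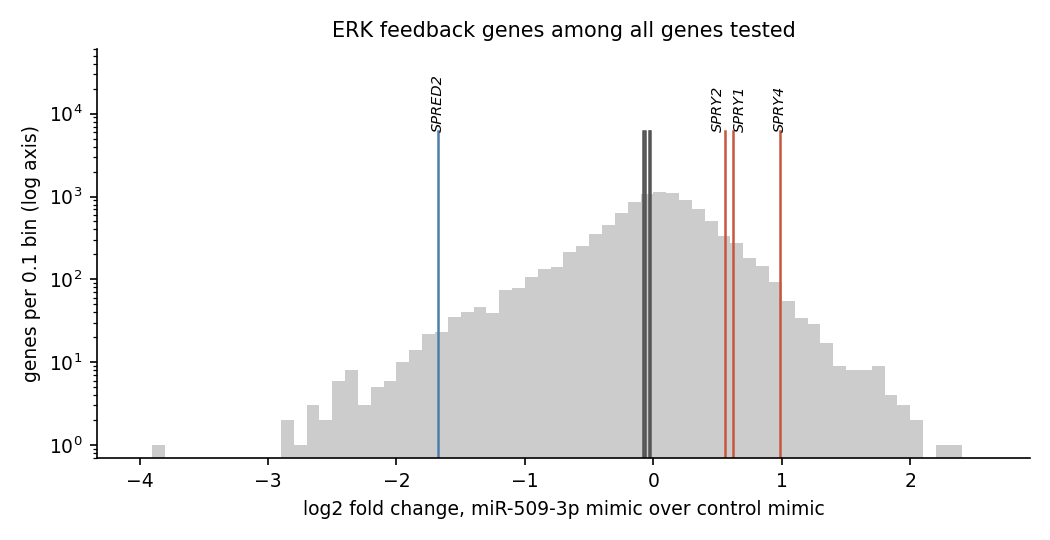
Number of genes per bin of log2 fold change, miR-509-3p mimic over control mimic, for all 10239 genes tested (grey, log axis), with a line for each of the 8 measured ERK feedback genes (red called higher, blue called lower, dark grey not called). SPRY4 stands at percentile 98.2 and SPRED2 at 0.869, while the uncalled members crowd near 0.

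Promoter windows from RefSeq (GRCh38.p14), 250 bases before to 50 after a start site, were at hand for 8 of the 10 members, 12 windows in all. The windows of the Sprouty genes are shown because these members rose together. Where a gene has several windows, the one with an ETS match is given. Capitals mark matches, on either strand, to CCGGAA, the core bound by ETS factors, to TGACGTCA, the cyclic AMP response element, to TGANTCA, bound by AP-1, or to the CArG box bound by SRF. These motifs do not overlap one another here.
SPRY1, plus strand, chr4:123398136-123398435: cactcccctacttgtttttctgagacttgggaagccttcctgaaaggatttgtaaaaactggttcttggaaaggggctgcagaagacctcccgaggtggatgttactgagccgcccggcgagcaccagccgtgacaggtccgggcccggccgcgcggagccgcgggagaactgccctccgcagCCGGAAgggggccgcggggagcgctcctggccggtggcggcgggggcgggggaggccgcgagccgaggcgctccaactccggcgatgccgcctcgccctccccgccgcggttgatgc
SPRY2, minus strand, chr13:80341077-80341376: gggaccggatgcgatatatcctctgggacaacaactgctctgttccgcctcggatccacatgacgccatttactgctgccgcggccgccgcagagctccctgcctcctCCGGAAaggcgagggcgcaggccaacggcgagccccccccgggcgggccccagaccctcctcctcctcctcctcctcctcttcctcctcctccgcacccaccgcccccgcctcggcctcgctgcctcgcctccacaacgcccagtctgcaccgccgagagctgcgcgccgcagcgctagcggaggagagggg
SPRY4, minus strand, chr5:142324198-142324497: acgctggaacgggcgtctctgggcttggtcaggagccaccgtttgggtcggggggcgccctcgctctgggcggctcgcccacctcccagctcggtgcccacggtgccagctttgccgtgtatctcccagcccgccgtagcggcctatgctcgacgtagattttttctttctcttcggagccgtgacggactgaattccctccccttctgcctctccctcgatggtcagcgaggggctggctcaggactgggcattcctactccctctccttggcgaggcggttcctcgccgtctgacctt

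The SPRY1 and SPRY2 windows shown each held 1 ETS match, for which they were picked, and the other windows of these genes held none. The single SPRY4 window held none of these letters. Among the 12 member windows, 2 held an ETS match, and 17.2% of all 35116 promoter windows did. The DUSP1 window held a cyclic AMP response element, as did 1.85% of all windows, and a second SPRED2 window held AP-1 matches, as did 7.71%. None of the 12 windows searched held a CArG box, found in 1.29% of all. A match is a description of the letters and shows no binding, and its absence covers these windows alone.

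The rest of the pathway was read through lists of genes drawn up from general knowledge, with earlier results of these data known. The counts of each list stand beside 18% of all genes called higher, 16.5% lower and 34.4% in either direction. Whether any list departs from these shares was not tested. In the ERK cascade itself, 13 of 23 listed genes were measured, of which 5 fell, 2 rose and 6 did not pass, with a median log2 fold change of -0.01. LAMTOR3, a scaffold that joins MEK to ERK, fell by 1.98 ± 0.08, the kinase gene ARAF by 1.88 ± 0.08 and the adaptor gene SHC1 by 1.19 ± 0.11. RRAS2, a RAS-related GTPase, fell by 0.65 ± 0.08 and MAP2K1, which encodes the ERK kinase MEK1, by 0.63 ± 0.08. PTPN11, the phosphatase SHP2 that relays receptor signals to RAS, rose by 0.78 ± 0.08 and the GTPase gene RRAS by 0.46 ± 0.07. MAPK3, which encodes ERK1, had 0.34 ± 0.11, SOS2 0.23 ± 0.08 and GRB2 0.16 ± 0.08, and these did not pass, although MAPK3 passed in 4 of the 13 alternatives and its second probe passed at 0.39 ± 0.08. LAMTOR3, ARAF, SHC1 and PTPN11 kept their calls in all 13 alternatives, RRAS2 and MAP2K1 in 11 and RRAS in 7, and with any 1 array left out 3 to 5 genes of the list fell and 1 rose.

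Sprouty and SPRED proteins act with partners and beside RAS inactivators, of which 15 of 18 listed were measured. Of these, 4 rose, 1 fell and 10 did not pass, with a median log2 fold change of -0.08. The ubiquitin ligase genes SIAH2, SIAH1 and CBL, whose products bind Sprouty proteins, rose by 0.69 ± 0.11, 0.41 ± 0.09 and 0.35 ± 0.08, and TESK1, a kinase that binds Sprouty and SPRED proteins, rose by 0.64 ± 0.08. A second CBL probe, at 0.32 ± 0.11, did not pass. ERRFI1, a feedback inhibitor of the EGF receptor, fell by 0.72 ± 0.08. RASA2, a RAS inactivator detected on 1 of the 2 mimic arrays, had -0.67 ± 0.35, CBLB 0.46 ± 0.15 and CAV1 -0.37 ± 0.10, and these did not pass, while a second CAV1 probe passed at -0.47 ± 0.11. In the alternatives CAV1 passed in 6, CBLB in 4, among them without control 1, and RASA2 in 1, at -1.19 without mimic 1 against -0.16 without mimic 2. NF1, the gene for neurofibromin, the partner of SPRED proteins, had 0.11 ± 0.16 and was not called. ERRFI1 kept its call in 12 of 13 alternatives, SIAH2 and TESK1 in 11, and SIAH1 and CBL in 6, and with any 1 array left out 0 to 3 genes of the list rose and 1 fell.

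The next list joined genes that ERK is known to drive with the transcription factor genes ELK1, ELK3, ELK4 and SRF, and held calls in both directions. Of 24 listed, 22 were measured, of which 6 fell, 2 rose and 14 did not pass, with a median log2 fold change of -0.18. MYC fell by 0.87 ± 0.08, the growth factor gene HBEGF by 0.85 ± 0.08, the neuropeptide precursor gene VGF by 0.84 ± 0.11, the cyclin gene CCND1 by 0.68 ± 0.07, the AP-1 gene FOSL1 by 0.59 ± 0.09 and the ETS factor gene ETV5 by 0.29 ± 0.07. A second, dimmer ETV5 probe passed at -0.53 ± 0.08. FOS rose by 0.88 ± 0.17, and SRF, which binds the CArG box, by 0.46 ± 0.08. EGR1 had 0.66 ± 0.36, EREG 0.35 ± 0.12 and ELK1 -0.25 ± 0.12, and these did not pass. EGR1 was 1.19 and passed without control 1, against 0.13 without control 2, and EREG passed in 1 alternative. MYC and HBEGF kept their calls in all 13 alternatives, VGF in 12, CCND1 in 11, FOS in 10, FOSL1 in 9, SRF in 8 and ETV5 in 6, and with any 1 array left out 2 to 5 genes of the list fell and 0 to 2 rose. HBEGF read 7.01 and 6.96 on the mimic arrays, where the lowest detected signal was 6.75, and its log2 fold change was -0.43 without background correction and -0.45 with the authors' processed values. Those of FOSL1 were -0.36 and -0.38. For both FOS and EGR1, control 2 lay well below control 1, at 9.89 against 10.34 and at 8.92 against 9.98; DUSP6 also read lower on control 2 than on control 1.

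Dual specificity phosphatase genes outside the member list, many of which act on substrates other than ERK, were measured for 14 of 19 listed. Of these 4 rose, 2 fell and 8 did not pass, with a median of 0.11. DUSP3 rose by 0.71 ± 0.09, DUSP22 by 0.48 ± 0.10, and the pseudophosphatase genes STYXL1 and STYX by 0.45 ± 0.07 and 0.43 ± 0.07. A dim second DUSP22 probe, at 0.40 ± 0.14, did not pass, while another passed at 0.56 ± 0.11. DUSP18 fell by 1.10 ± 0.09 and DUSP12 by 0.35 ± 0.09. The log2 fold change of DUSP18 was -0.73 without background correction and -0.76 with the authors' processed values. DUSP19 had 0.31 ± 0.30, DUSP16 0.26 ± 0.08 and DUSP23 -0.22 ± 0.11, and these did not pass. In the alternatives DUSP16 passed in 2, DUSP23 in 1 and DUSP19 in 1, at 0.75 without control 1 against -0.13 without control 2. DUSP18 kept its call in all 13 alternatives, DUSP3 in 11, DUSP22 and STYXL1 in 8, STYX in 7 and DUSP12 in 6, and with any 1 array left out 0 to 3 genes of the list rose and 1 fell. SPRY3 and SPRED3, the remaining genes of the Sprouty and SPRED families, had no kept probe.

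**Figure D4:**
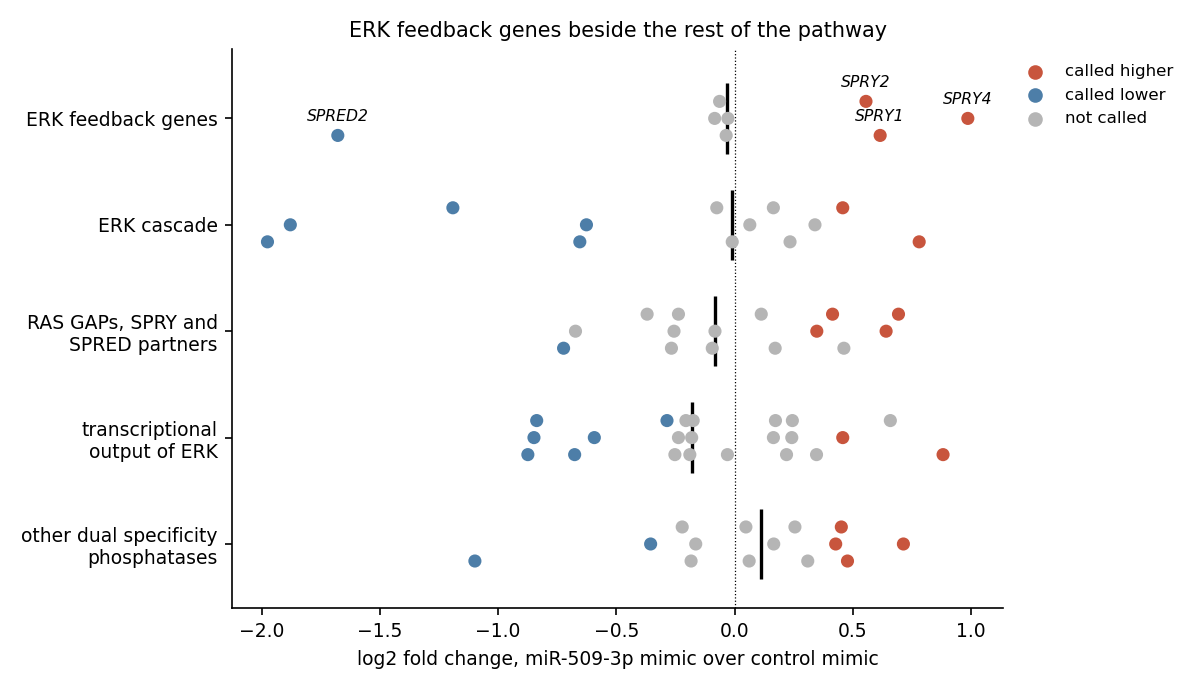
Log2 fold change, miR-509-3p mimic over control mimic, of each measured gene in the ERK feedback set and in 4 other lists of the pathway, 1 row a list, with a black bar at the median of the list. Red points were called higher, blue lower and grey not called. The medians lie between -0.18 and 0.11, with genes called in both directions in each row.

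Over the 4 arrays, the genes whose centred log2 profile lay nearest to that of SPRY4, by Euclidean distance, were TCF3 at 0.0404, OXR1 at 0.0409 and TTLL6 at 0.0416. Nearest to SPRED2 were PAPPA at 0.0484, IGFBP7 at 0.0725 and GPC6 at 0.0763. With 4 arrays in 2 groups this likeness reflects mainly a like fold change.

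The arrays were alike in depth, with median probe signals of 202 to 207 and 33.7% to 34.7% of probes detected. Of 11 markers of a lung epithelial line 9 were measured, with AKR1B10, ALDH1A1 and ALDH3A1 at log2 15.75 or more on every array and not called. Whether signals this high can still show a change was not tested. Of these 9, KRT7 and CDH1 fell by 0.91 ± 0.09 and 0.29 ± 0.07, MUC1 rose by 0.47 ± 0.10, and 6 were not called. Fibroblast, endothelial and leukocyte markers were measured for 2 of 7, 1 of 6 and 2 of 6 genes, and defining ones such as DCN, VWF, PECAM1 and PTPRC had no kept probe. Their mean log2 level on control and mimic arrays was 7.01 to 7.06 and 7.46 to 7.57 for the fibroblast genes THY1 and COL1A1, 8.65 to 8.73 and 7.51 to 7.65 for the endothelial gene ESAM, and 10.99 to 11.05 and 11.68 to 11.73 for the leukocyte genes CD14 and CD68. THY1, CD68 and CD14 rose by 0.95 ± 0.11, 0.93 ± 0.08 and 0.45 ± 0.10 and ESAM fell by 1.11 ± 0.09, whereas COL1A1, at 0.01 ± 0.07, was not called. The part of these changes in the Sprouty and SPRED2 results was not tested.

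**Figure D5:**
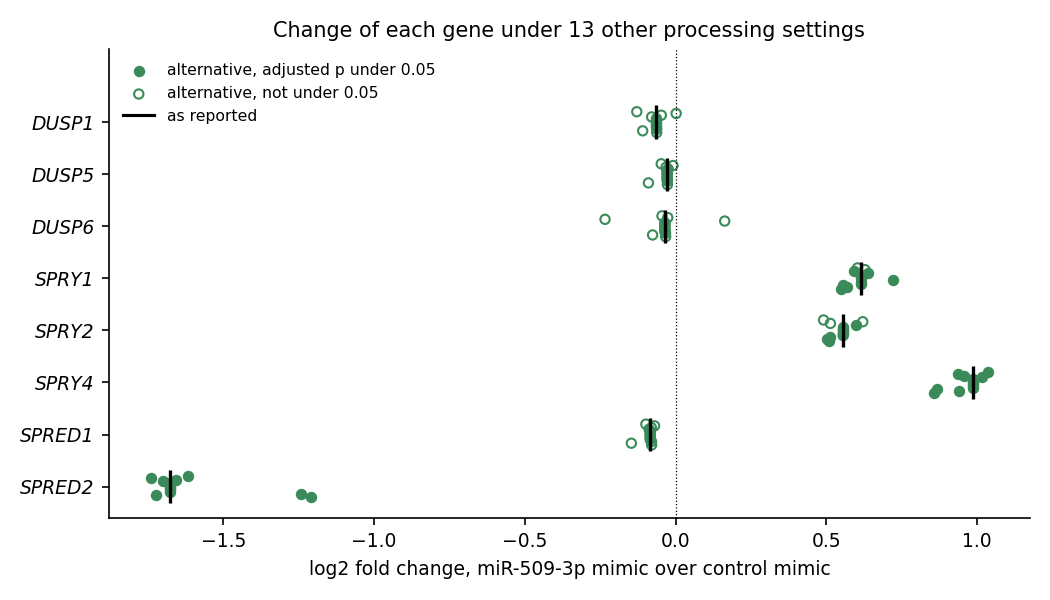
Log2 fold change of each measured ERK feedback gene as reported (black bar) and under 13 alternatives (points; filled where the limma adjusted p was under 0.05, open where not). SPRY4 and SPRED2 stay filled throughout, SPRY1 and SPRY2 turn open in some alternatives, and DUSP1 and DUSP6 each cross 0 once.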

How the data were processed

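RNA of 4 A549 samples, 2 a group by the labels' titles, was read on Illumina bead arrays. The authors deposited linear probe intensity without normalization across the arrays, made with GenomeStudio 2009.2 per the submitters' processing notes, with a detection p-value beside each. The authors also deposited log2 processed values, whose quantiles were equal on all arrays; the sources used here do not give the steps behind them. These files state no build, so positions are given only for the RefSeq sequences printed, with the build of those.

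In R 4.3.3 with limma 3.58.1, neqc was run with the detection p-values (normexp background, offset of 16, quantile normalization, log2). Of 47320 probes, 16561 were kept, those detected at p under 0.01 on 2 or more arrays. The platform annotation gave 1 gene for 30113 probes, several for 8 and none for 17199. By gene ID, 30074 named probes were matched to a RefSeq gene (GRCh38.p14) and took its symbol, whether or not it differed. The brightest kept probe stood for each of 10239 genes. lmFit and eBayes were run over kept probes without covariates, with 2 residual and 2.48 prior degrees of freedom, and Benjamini-Hochberg adjustment ran over genes. Further probes were adjusted over all kept probes. The fit was tested on simulated data.

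The members and lists were chosen with earlier results of these data known. Genes were named as follows: every measured member, every called gene of a list, up to 3 uncalled genes of each list with the widest change, and the 3 profiles nearest to the widest called rise and fall. NF1 was named besides, after its value was seen. Of sample columns, 0 were left unused. Figures were drawn with matplotlib 3.10.9.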

Additional observations from a re-analysis of the deposited data

Results flagged for a closer look

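DUSP7, which the comparison leaves out, had a deposited signal of 260 on mimic array 2, where its probe met the detection threshold, and was not detected on mimic array 1 or on either control array. It drew attention as signal in a probe outside the comparison that exceeded both control arrays. The other mimic array, at 183, lay below both control arrays at 201, so the mimic arrays went opposite ways.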

How the results depend on the processing

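SPRY4 and SPRED2 kept their direction and their call in all 13 alternatives, with log2 fold changes of 0.86 to 1.04 and of -1.74 to -1.21, the smallest SPRED2 size coming without background correction. SPRY1 kept its call in 11 of 13 and SPRY2 in 9 of 13, and both kept their direction in all. DUSP5 and SPRED1 kept a negative sign in all 13 and were never called. Not every alternative could move an estimate. The changed detection filters, the adjustment over all kept probes, the trend and robust fit and the replicate block left each member's estimate as reported. So did averaging of probes, except for SPRY1. Where the estimate was left, only the call could change. The settings without background correction and with the authors' processed values gave members similar estimates. With 1 array left out, DUSP1 ranged from -0.13 to 0.0020, turning positive without mimic 1, and DUSP6 from -0.23 to 0.16, turning positive without control 1; neither was called in any alternative. Leaving out each array in turn, 1 to 3 members were called higher and 1 lower, and 310 to 1140 genes were called higher and 607 to 1089 lower. Without a filter on dim probes, which tests 20046 genes, 768 genes were called higher and 961 lower. With the replicate block, 1306 genes were higher and 1328 lower, and it changed no call of a member. Deviations of same-numbered arrays correlated at -0.057, so the numbers were not taken as pairs. The median change of all genes lay between -0.0067 and 0.046 in all settings. Members below detection have no fold change at this signal over background. Of the other pathway genes named, whose alternatives were added after the data were seen, 2 turned sign, neither called as reported: with 1 array left out, DUSP19 ranged from -0.13 (without control 2) to 0.75 and NF1 from -0.078 (without mimic 1) to 0.30. Why any call was lost was not tested.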
